A study of Rattus norvegicus with 14 samples.

Results

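The libraries described here are the 8 of hippocampal neurons, among the 14 RNA-seq libraries of the series, split by the first number of their replicate label into set 1 (numbers 1-1 and 1-2) and set 2 (numbers 2-1 and 2-2). Each set held 4 libraries, 2 of vehicle (AM-Veh) and 2 of allopregnanolone (AM-Allo), so the sets could be compared with treatment as a covariate. The study asked which signalling pathways unify the actions of allopregnanolone (Allo), a neurosteroid made from progesterone that binds GABA-A receptors, in neurons and astrocytes. It covered neurite growth, calcium signalling, mitochondrial function and inflammasome genes. All 8 libraries came from primary hippocampal neurons of Sprague Dawley rat embryos at embryonic day 18, kept to day 10 in culture, moved for 4 h to AM, the "Aging Model" medium with reduced supplements, and then given vehicle or 100 nM Allo for 16 h. The labels do not say what the first number stands for, and no source used here says whether it marks a dissection, a plating, an extraction or a sequencing run. A difference between cultures and a technical difference between the sets therefore cannot be told apart. Each set is 1 unit, and the p-values below measure the spread between libraries within the sets.

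Primary neuron cultures from embryonic hippocampus hold excitatory and inhibitory neurons together with the astrocytes, oligodendrocyte precursors and dividing progenitors that survive plating, and small pieces of meninges and vessels can come along with the tissue. Neurons in such cultures extend axons, form synapses and begin to fire, while the glia divide until the medium or an inhibitor stops them. Cultured cells also meet oxidative and nutrient stress, answered by the transcription factor NRF2, which switches on glutathione and iron-handling genes, and by ATF4 of the integrated stress response, which switches on amino acid transporters and aminoacyl-tRNA synthetases.

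Values are counts per gene that the authors normalized between libraries, called normalized counts, and values per set are listed in the order AM-Veh, AM-Veh, AM-Allo, AM-Allo by increasing number. Differences are log2(normalized count + 1) in set 2 minus set 1, also where a gene is said to differ by a value or a value stands in parentheses after its name, and a gene was called at a limma adjusted p under 0.05 over the 15314 genes with a mean of at least 10. An estimated 19800000 to 25100000 reads lay on genes per library in set 1 and 19700000 to 24300000 in set 2. The share of normalized counts on mitochondrial DNA was 5.86% to 6.06% in set 1 and 5.61% to 5.74% in set 2, without overlap. Libraries of the same set correlated at r = 0.991 to 0.993 across genes and libraries of different sets at 0.988 to 0.990. Genes are not independent replicates, so these values describe the libraries only.

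Of the terms of the layout, set took the most variance between the libraries. Over all genes tested it took 31.7% of the variance, against 13.6% for treatment, 12.2% for the second part of the replicate number and 11.2% for the interaction of set with treatment. The whole number within a set took 10.9%, and all remaining contrasts together 20.5%. The terms other than set were thus close to the spread between libraries, and these shares were not tested. The first principal component took 31.9% of the variance and placed the set 1 libraries at -18.1 to -12.9 and the set 2 libraries at 14.2 to 18.4. The second, at 14.2%, spread AM-Veh from AM-Allo, more widely in set 2 than in set 1. Of the 15314 genes, 2636 (17.2%) were called, 1471 (9.61%) higher and 1165 (7.61%) lower in set 2. Counts of called list members below are to be read against these shares. Most of the called differences were small, with a median absolute log2 difference of 0.23 among the called genes. A fold of at least 2 was reached by 71 of the higher genes and 29 of the lower ones, and a fold of at least 1.5 by 270 and 102. The share of higher calls was 55.8% here but 44.7% after scaling to the library total, 48.8% after upper-quartile scaling and 48.9% after quantile normalization, so the balance of small differences rested on the scaling. The 4 libraries of one set lay wholly on 1 side of the other 4 for 3009 genes (19.6%), and 2221 genes (14.5%) were both called and without overlap. For a single gene without overlap the exact two-sided permutation p over the 8 libraries is 0.0286, the smallest that 4 against 4 can give. It shuffles libraries between the sets, although each set is 1 unit.

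**Figure D1:**
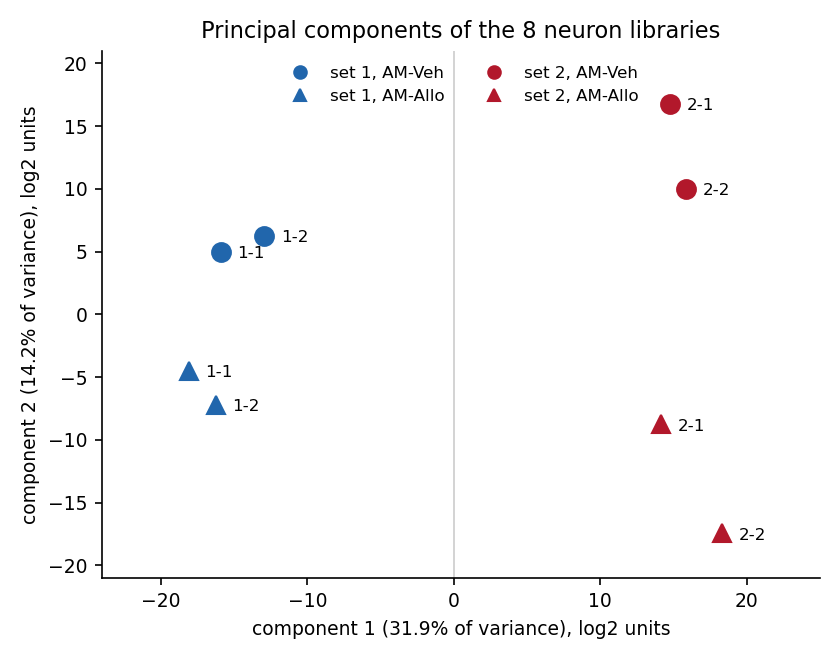
The 8 neuron libraries on the first 2 principal components of log2(normalized count + 1) over 15314 genes, coloured by set, with marker shape for treatment and replicate numbers beside the points; axes are component scores. Set 1 lies between -18.1 and -12.9 on the first component and set 2 between 14.2 and 18.4.

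The labelled cell type was checked against defining genes. Map2, a dendritic microtubule protein, stood at 24671 to 26989.7 in set 1 and 23908 to 27068 in set 2, and Slc17a7, the vesicular glutamate transporter of excitatory neurons, at 1905 to 2322 in set 1 and 1726 to 2588 in set 2. Neither was called, and in both the sets overlapped. Genes of other cells were present too, since Gfap, the intermediate filament of astrocytes, ranged from 68164 to 78721 in set 1 and 107404 to 118740.0 in set 2 and Pdgfra, the receptor of oligodendrocyte precursors, from 6871 to 7257 in set 1 and 6138 to 6346 in set 2. Defining genes of microglia were near 0, with Aif1 at 2.09 to 5.0 in set 1 and 1.22 to 3.98 in set 2 and Cx3cr1 at 0 to 3.0 and 0 to 4.69. Of the 12 microglia genes below the minimum, which were not tested, Csf1r stood at 4.08 to 19.6 in set 1 and 0 to 4.65 in set 2, and C1qc at 2.01 to 12.2 in set 1 and 0 in every set 2 library. The globin genes Hba1 and Hba-a1 stayed below 5 normalized counts in every library. The libraries are thus of mixed neuron cultures, in which fewer cells of a type and less RNA per cell cannot be told apart.

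**Figure D2:**
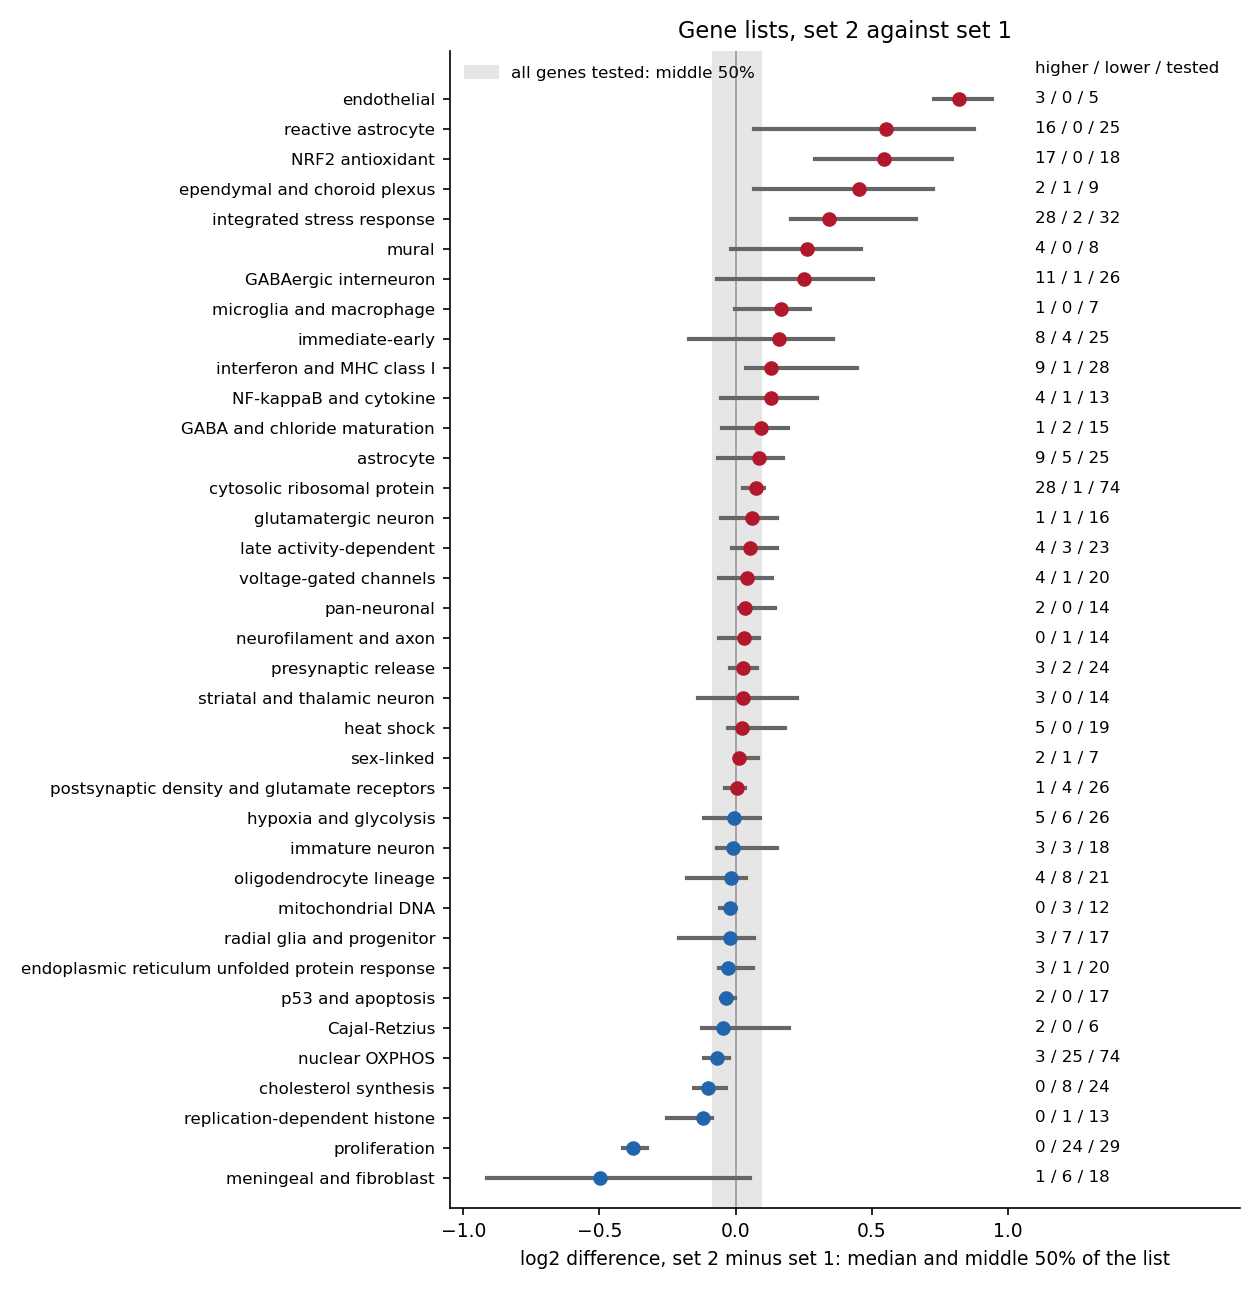
Gene lists in set 2 against set 1: each point is the median log2 difference of a list's tested members, the line spans its middle 50%, the grey band is the middle 50% of all genes tested, and the columns give members called higher, called lower and tested. NRF2 antioxidant genes (17 of 18 higher) and proliferation genes (24 of 29 lower) lie outside the grey band.

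Among called genes without overlap and with a mean of at least 50 in the higher set, Slc7a11 differed most upward. Slc7a11 encodes xCT, the cystine importer that feeds glutathione synthesis, and stood at 2176, 2479, 2220.4 and 2224 in set 1 and 8954, 11358, 10881 and 12057 in set 2. Every set 2 library was above every set 1 library, 4.75-fold on the means (log2 difference 2.24, SE 0.068, adjusted p = 1.66e-11). Gsn, gelsolin, an actin-severing protein found in oligodendrocytes and reactive glia, stood at 5566, 5626, 5531 and 5682 in set 1 and 16543, 16590.0, 16517 and 18441 in set 2, 3.04-fold higher with the smallest p of all genes named here (log2 difference 1.6, SE 0.031, adjusted p = 1.15e-13). Others of the 12 largest rises were Ifi27l2b (log2 difference 2.13), the unconventional myosin Myo5c (2.01), the Wnt inhibitor Nkd2 (1.88), thromboxane synthase Tbxas1 (1.80), osteopontin Spp1 (1.77), the early response gene Ier3 (1.66), Trib3 (1.56), the zinc transporter Slc39a12 (1.55) and the glutamine transporter Slc1a5 (1.53). Ifi27l2b belongs to a family of near-identical copies, so its reads could be shared between them.

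The largest fall was in Tnfrsf9, a receptor of the tumour necrosis factor family known from activated T cells. Tnfrsf9 stood at 201, 195, 239.7 and 180.0 in set 1 and 5.6, 10.2, 10.1 and 4.37 in set 2, 26.9-fold lower in set 2 (log2 difference -4.64, SE 0.24, adjusted p = 7.11e-09). All 4 set 2 values were at or near the minimum level of analysis, and all 4 set 1 values were far above it. Ephx2, the soluble epoxide hydrolase that breaks down lipid epoxides, stood at 251, 239, 262 and 269 in set 1 and 65.4, 45, 57.9 and 57.3 in set 2 (log2 difference -2.17, SE 0.12, adjusted p = 1.06e-08), again with no overlap. Macc1 (log2 difference -3.12), the solute carrier Slc35d3 (-1.45), Doc2g (-0.93), the Wnt receptor Fzd10 (-0.87), Ttr (-0.92), Mbp (-0.96) and 4 genes of fibroblasts described below made up the 12.

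The NRF2 antioxidant genes were higher in set 2 as a group. Of the 18 list members tested, 17 were called higher (against 9.61% of all genes) and 0 lower, all 18 had a positive difference, and the median was 0.55 against -0.0026 for all genes tested. Their summed normalized counts were 142359 to 149650 in set 1 and 224058 to 250933 in set 2. The count of higher calls was 17 in each of the 8 refits that left out 1 library and within AM-Veh or AM-Allo alone.

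Hmox1, heme oxygenase, which breaks heme down to biliverdin and iron, stood at 7260.0, 7740.5, 7241 and 7230.5 in set 1 and 16804, 19351, 16876 and 16707 in set 2. It was 2.37-fold higher (log2 difference 1.24, SE 0.036, adjusted p = 1.36e-11) with a wide gap between the sets. Nqo1, a quinone reductase, stood at 7121 ± 304 in set 1 and 13445 ± 989 in set 2 (SD, n = 4 each), a log2 difference of 0.91. Fth1, the ferritin heavy chain that stores iron, was 1.76-fold higher at 45498 ± 1083 in set 1 and 79880.3 ± 6520.4 in set 2 (SD, n = 4 each), and since ferritin has many processed copies in the genome its reads could be shared with them. Of the 2 subunits of glutamate-cysteine ligase, which makes the first step to glutathione, the modifier subunit Gclm was 1.77-fold higher (log2 difference 0.82, SE 0.051, adjusted p = 3.35e-08) and the catalytic subunit Gclc 1.13-fold (log2 difference 0.18, SE 0.024, adjusted p = 1.05e-04), each without overlap. Gstp1, a glutathione transferase, differed by 0.66, Txnrd1, a thioredoxin reductase, by 0.50, malic enzyme Me1, which makes NADPH, by 0.28 and peroxiredoxin Prdx1 by 0.26, all log2 and all called.

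To show the promoters of these genes, the 250 bases before each RefSeq gene start (assembly GRCr8) were searched on both strands for the core of the antioxidant response element, TGACNNNGC, where N is any base. A RefSeq promoter was matched for 13 of the 18 genes, and 5 of these (38.5%) held the core, against 3027 of 27457 genes (11%). The letters can also hold the AP-1 core TGACTCA, and a match is a description of sequence, not a site shown to be used. In the 5 windows, 5′ to 3′ along the gene, capitals mark the core on either strand:
Gclm, chr2:213031943-213031991, plus strand: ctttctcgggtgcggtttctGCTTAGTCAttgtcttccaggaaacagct
Txnrd1, chr7:22755954-22756002, minus strand: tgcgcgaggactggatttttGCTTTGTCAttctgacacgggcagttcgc
Gstp1, chr1:210769738-210769786, minus strand: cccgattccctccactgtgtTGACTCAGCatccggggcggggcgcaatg
Prdx1, chr5:135383751-135383799, plus strand: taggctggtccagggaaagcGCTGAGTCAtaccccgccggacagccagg
Me1, chr8:96540383-96540431, minus strand: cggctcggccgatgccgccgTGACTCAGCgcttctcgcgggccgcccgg
All 5 of these genes were called higher in set 2, as were 17 of the 18 list members tested.

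The integrated stress response list moved with nearly as large a share of its members. Slc7a11 belongs both to this list and to the NRF2 list. Of 32 tested, 28 were called higher (87.5%, against 9.61% of all genes) and 2 lower (6.25%, against 7.61%). The median log2 difference was 0.34, and leaving out 1 library at a time gave 27 to 28 higher calls. Trib3, a pseudokinase induced by ATF4, stood at 125, 101, 119 and 107 in set 1 and 295, 364, 340.3 and 339 in set 2. The sets did not overlap and differed 2.96-fold (log2 difference 1.56, SE 0.096, adjusted p = 3.35e-08). Eif4ebp1, which restrains cap-dependent translation, stood at 371 ± 17.8 in set 1 and 790.2 ± 44.9 in set 2 (SD, n = 4 each), a difference of 1.09, and the transcription factor Atf5 at 3804 ± 179.9 in set 1 and 7003 ± 469 in set 2 (SD, n = 4 each), a difference of 0.88.

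Transporters and enzymes of amino acids were among the higher genes. Slc1a5 stood at 401, 424, 330.3 and 408 in set 1 and 1001, 1192, 1176 and 1132 in set 2, 2.88-fold higher on the means with no overlap. Slc3a2, the heavy chain that pairs with xCT, differed by 0.53, Asns, asparagine synthetase, by 0.58, and Atf4 itself by 0.39 (9.16e-06 adjusted p). Chac1, which degrades glutathione, differed by 0.46, with the highest set 1 library (270.1) just under the lowest of set 2 (270.4). The alanyl- and methionyl-tRNA synthetases Aars and Mars differed by 0.23 and 0.16. Ddit3, encoding CHOP, was 1.17-fold higher, a call lost in 4 of 8 refits, adjusted p up to 0.0898 without AM-Allo 2-2, the refits being those that each left out 1 library. Both lower members were called, Ddit4, an inhibitor of mTORC1, at -0.22 and Cbs, of the transsulfuration pathway, at -0.21.

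The same promoter windows were searched for the core of the amino acid response element bound by ATF4 with C/EBP factors, TGATGNAA. Of 28 list genes with a promoter, 5 (17.9%) held it, against 983 of 27457 genes (3.58%), and of 13 NRF2 list genes 0 held it. The antioxidant core was found in 8 of the 28 (28.6%). All 5 with the amino acid core were called higher, as were 28 of the 32 list members tested. The windows of 4 are shown, with the core in capitals on either strand, while that of Nars, asparaginyl-tRNA synthetase (log2 difference 0.38), is not printed:
Trib3, chr3:161275534-161275574, minus strand: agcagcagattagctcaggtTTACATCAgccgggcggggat
Chac1, chr3:126795944-126795991, plus strand: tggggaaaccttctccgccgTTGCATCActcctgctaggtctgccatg
Aars, chr19:55908350-55908397, plus strand: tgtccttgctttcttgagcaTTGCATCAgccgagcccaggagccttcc
Mars, chr7:65023754-65023790, minus strand: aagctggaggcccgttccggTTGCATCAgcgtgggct
RefSeq lists Aars and Mars as Aars1 and Mars1. No match in the window of a gene says only that these letters are not in its 250 bases.

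**Figure D3:**
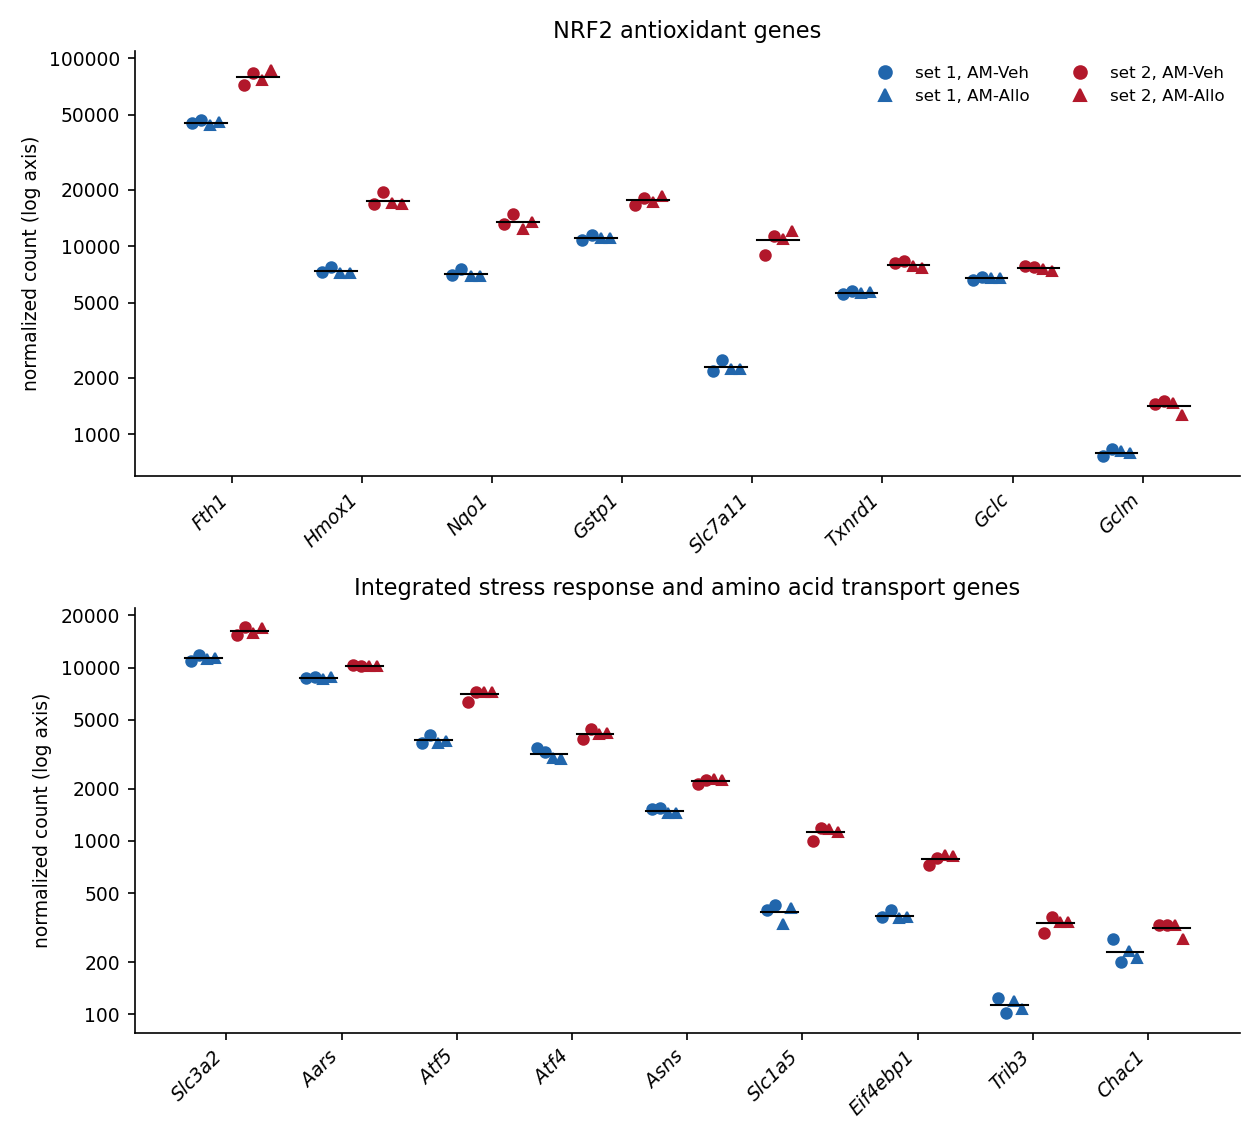
Normalized counts (log axis) of stress genes in each neuron library, set 1 beside set 2, with circles and triangles for AM-Veh and AM-Allo and a bar at each set's mean. For Slc7a11 the set 1 libraries lie at 2176 to 2479 and the set 2 libraries at 8954 to 12057.

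Other stress lists moved less. Of 20 genes of the endoplasmic reticulum unfolded protein response, 3 were called higher (15%, against 9.61% of all genes) and 1 lower (5%, against 7.61%), with a median of -0.0272. The higher ones were Herpud1 (0.40), which helps to degrade misfolded proteins, the chaperone Hspa5 (0.15) and Dnajb9 (0.18, lost in 4 of 8 refits, adjusted p up to 0.0808 without AM-Veh 2-1), and the lower one the disulfide isomerase Pdia6 (-0.13). Of 19 heat shock genes, 5 were higher and 0 lower, yet the list's median was only 0.0242 and turned negative after quantile normalization. The small heat shock protein Hspb1 stood at 588 ± 62.4 in set 1 and 1184 ± 105 in set 2 (SD, n = 4 each), 2.01-fold higher, and its partners Hspb8 and Bag3 differed by 0.73 and 0.52. Of 17 genes of p53 and apoptosis 2 were higher (11.8%, against 9.61% of all genes), the p53 ligase Mdm2 (0.20) and Gadd45a (0.29), and 0 lower. The median of this list was -0.0342, and 13 of its 17 differences were negative.

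Hypoxia and glycolysis genes were divided, with 5 of 26 called higher and 6 lower. Slc2a1, the glucose transporter GLUT1, stood at 1194 ± 52.4 in set 1 and 1857 ± 179 in set 2 (SD, n = 4 each), a log2 difference of 0.63, and the glycolytic enzyme Pkm differed by 0.22. The most abundant member of the list was among the 6 lower ones. Without the AM-Allo 1-2 library the higher calls numbered 2. Of 28 interferon and MHC class I genes, 9 were higher (32.1%, against 9.61% of all genes) and 1 lower (3.57%, against 7.61%). The median was 0.13, and without AM-Allo 1-2 the higher calls numbered 5. Ifit2, an interferon-induced antiviral protein, differed by 0.76, the guanylate-binding protein Gbp2 by 0.45 and B2m, the light chain of MHC class I, by 0.14. Of 13 NF-kappaB and cytokine genes 4 were higher, among them Tnfaip2 (0.73), the cytokine Csf1 (0.27) and the adhesion molecule Icam1 (0.25), and the feedback inhibitor Tnfaip3 was lower (-0.54, lost in 3 of 8 refits, adjusted p up to 0.071 without AM-Allo 1-2).

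Genes of reactive astrocytes were higher in set 2, while general astrocyte genes were split. Of 25 reactive astrocyte genes tested, 16 were called higher (64%, against 9.61% of all genes) and 0 lower, with a median of 0.55. Their summed counts were 11774 to 13125 in set 1 and 16891 to 19584 in set 2. S1pr3, a sphingosine phosphate receptor, stood at 1430.4, 1624, 1346 and 1321 in set 1 and 2841, 3166, 2409 and 2578 in set 2. It was 1.92-fold higher with no overlap (log2 difference 0.94, SE 0.045, adjusted p = 4.53e-09). Cd44, a hyaluronan receptor, differed by 0.54 and the protease inhibitor Timp1, the most abundant member, by 0.55. Lcn2, lipocalin, an acute-phase protein, stood at 3.32, 7.93, 7.46 and 4.0 in set 1 and 9.08, 31.9, 22.8 and 11.3 in set 2, a low gene whose call was lost in 3 of 8 refits, adjusted p up to 0.0966 without AM-Allo 2-1. C3, a complement factor often used as a marker of reactive astrocytes, stayed at 0.93 to 5.0 in set 1 and 1.12 to 3.76 in set 2.

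Of 25 astrocyte genes, 9 were called higher and 5 lower (median 0.084). Gfap stood at 72068, 78721, 68164 and 73682 in set 1 and 107404, 118740.0, 107863 and 114981 in set 2, 1.53-fold higher, and the sets did not overlap (log2 difference 0.62, SE 0.038, adjusted p = 3.25e-08). The metallothioneins Mt1 and Mt2A, which bind zinc and copper, differed by 1.15 and 0.58, and reads of this family could be shared between copies. Apoe, the lipid carrier and most abundant member, differed by only 0.16. Glul, Slc4a4 and Aldoc were the lower members with the smallest p. Glul, glutamine synthetase, which detoxifies glutamate and ammonia, stood at 34561, 33563, 35507 and 36046 in set 1 and 27644, 26119.6, 25442 and 27178 in set 2, 1.31-fold lower without overlap (log2 difference -0.39, SE 0.029, adjusted p = 2.06e-07). The bicarbonate cotransporter Slc4a4 differed by -0.56 and the aldolase Aldoc by -0.21.

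The direction of all genes was also read along an index of culture type. The index was the ratio of a gene's share of counts in the study's AM-Veh astrocyte libraries to its share in the 8 neuron libraries. The authors scaled the astrocyte and neuron tables apart from each other, so the index ranks genes and tests nothing. Its neuron side was the mean of the same 8 libraries that make up the sets, AM-Allo included. Genes were cut into 5 bins along the index. In the bin most enriched in astrocyte cultures, 17.4% were called higher and 4.02% lower, with a median difference of 0.0657. In the bin most enriched in neuron cultures, 8.95% were higher and 13.7% lower, with a median of -0.0138. Of the 71 genes at least 2-fold higher in set 2, 38 (53.5%) were in the astrocyte bin and 15 (21.1%) in the neuron bin. Of the 29 at least 2-fold lower, 13 (44.8%) were in the neuron bin and 6 (20.7%) in the astrocyte bin. Reactive astrocyte genes lay mostly in the astrocyte bin (19 of 25), as did interferon genes (22 of 28). NRF2 genes did not, with 3 of 18 there (16.7%, near the share of all genes) and 8 in the neuron bin (44.4%). Neither did integrated stress response genes, with 3 of 32 (9.38%) and 21 (65.6%). The astrocyte list itself had 6 of 25 in the astrocyte bin and 9 in the neuron bin. Oligodendrocyte lineage genes had 20 of 21 in the neuron bin. The bins therefore rank genes between 2 kinds of culture and do not give the cell type of a gene.

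**Figure D4:**
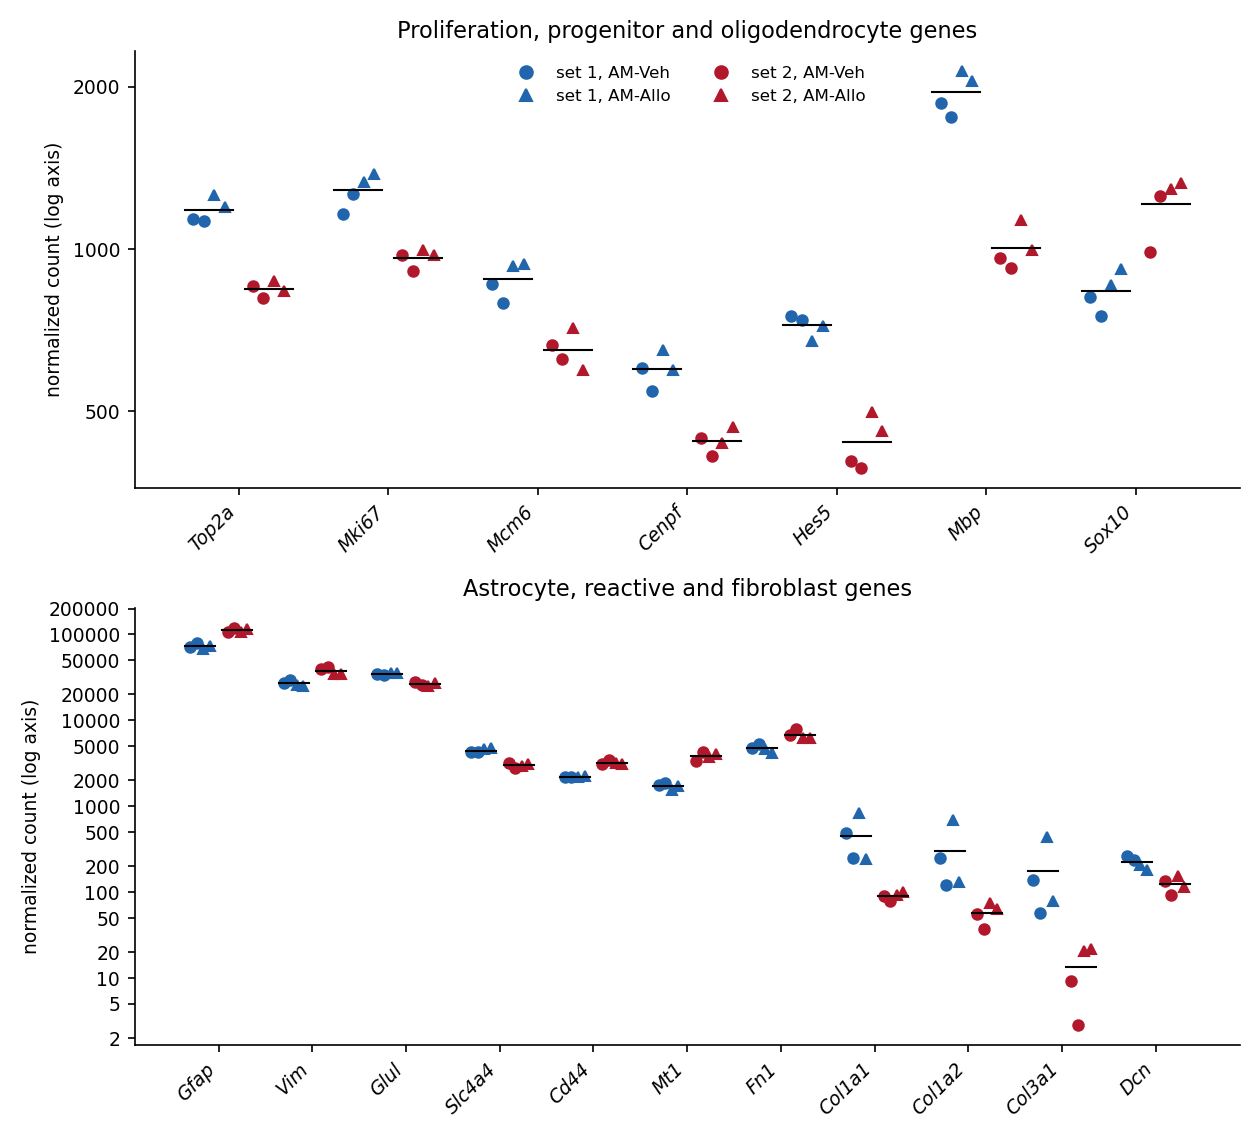
Normalized counts (log axis) of genes of cell types in each neuron library, set 1 beside set 2, with circles and triangles for AM-Veh and AM-Allo and a bar at each set's mean. Gfap is higher in all 4 set 2 libraries, and the collagen Col3a1 lies at 57.4 to 438 in set 1 and 2.82 to 21.6 in set 2.

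Genes of dividing cells were lower in set 2. Of 29 proliferation genes tested, 24 were called lower (against 7.61% of all genes) and 0 higher, all 29 differences were negative and the median was -0.38. Summed counts were 18032 to 19664 in set 1 and 15352 to 16347 in set 2, which did not overlap. Within AM-Veh alone 12 were called lower, and within AM-Allo alone 23, each fit having 2 libraries against 2. Over all genes the same fits called 323 and 1039 lower. Top2a, the topoisomerase of dividing cells, stood at 1137, 1126, 1258 and 1199 in set 1 and 853, 813, 871 and 837 in set 2, 1.4-fold lower (log2 difference -0.48, SE 0.04, adjusted p = 6.64e-07). Mki67, the proliferation marker, stood at 1286 ± 93.7 in set 1 and 965 ± 38.5 in set 2 (SD, n = 4 each) and Cenpf, a kinetochore protein, differed by -0.44. The helicase subunits Mcm5, Mcm6 and Mcm7, which open DNA for replication, differed by -0.64, -0.44 and -0.33, and thymidylate synthase Tyms by -0.21. Ccnd1, cyclin D, the most abundant member and one also made by cells that do not divide, was not called at -0.04.

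The promoters of these genes were searched in the same way for the E2F letters TTTGGCGC and TTTCCCGC, which are variants of 1 site. TTTGGCGC was found in 3 of 22 list genes with a promoter (13.6%), against 126 of 27457 genes (0.459%), and TTTCCCGC in 2 of 22 (9.09%), against 248 (0.903%). The windows of the 4 genes with a match are shown with the letters in capitals on either strand, for Mcm7 as TTTCCCGC and for the others as TTTGGCGC:
Mcm5, chr19:13488584-13488631, plus strand: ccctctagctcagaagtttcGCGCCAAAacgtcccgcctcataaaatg
Mcm6, chr13:42404464-42404511, minus strand: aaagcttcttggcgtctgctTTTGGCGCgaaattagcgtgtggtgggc
Tyms, chr9:120776093-120776140, minus strand: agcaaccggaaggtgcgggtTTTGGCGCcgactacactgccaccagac
Mcm7, chr12:22163384-22163428, minus strand: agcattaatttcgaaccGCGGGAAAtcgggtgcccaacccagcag
All 4 genes were called lower in set 2, as were 24 of the 29 list members tested.

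Radial glia and progenitor genes went both ways, with 3 of 17 called higher and 7 lower. Hopx stood at 161 ± 6.16 in set 1 and 299 ± 8.39 in set 2 (SD, n = 4 each), a log2 difference of 0.89. Nestin, Nes, the intermediate filament of progenitors and of reactive glia, stood at 11190.3 ± 547 in set 1 and 14461 ± 1185 in set 2 (SD, n = 4 each), a log2 difference of 0.37. Vimentin, Vim, was the other higher member (0.49). Hes5, a target of Notch signalling, stood at 752, 739.9, 675 and 721 in set 1 and 404, 392, 499 and 459.6 in set 2, 1.65-fold lower with no overlap (log2 difference -0.72, SE 0.069, adjusted p = 3.18e-06), and the Notch ligand Dll1 differed by -0.31.

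Oligodendrocyte lineage genes were also divided. Of 21 tested, 4 were called higher (19%, against 9.61% of all genes) and 8 lower (38.1%, against 7.61%), with a median of -0.0189. Mbp, myelin basic protein of mature oligodendrocytes, stood at 1867, 1760.0, 2145 and 2052 in set 1 and 964, 923, 1132 and 998 in set 2, 1.95-fold lower with no overlap (log2 difference -0.96, SE 0.043, adjusted p = 2.09e-09). Pdgfra differed by -0.18 and the lineage factor Olig2 by -0.15. Sox10, a transcription factor of the whole lineage, was higher (0.53), as were Bcas1 (0.15) of early myelinating cells, which overlapped between sets, and Nkx2-2 (0.13, lost in 2 of 8 refits, adjusted p up to 0.074 without AM-Allo 2-2). Without AM-Veh 1-1 the higher calls numbered 2.

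The fibroblast collagens Col1a1, Col1a2 and Col3a1 were much lower in set 2. Of 18 meningeal and fibroblast genes, 6 were called lower and 1 higher (median -0.50), and without single libraries the lower calls ranged from 5 to 9. Col3a1 stood at 137, 57.4, 438 and 78.3 in set 1 and 9.18, 2.82, 20.8 and 21.6 in set 2, 13.1-fold lower (log2 difference -3.46, SE 0.45, adjusted p = 7.10e-05). The libraries numbered 1-1 held more than those numbered 1-2 under either treatment, yet all 4 exceeded every set 2 library. Col1a1 stood at 483, 247, 839.7 and 243 in set 1 and 90.6, 79, 93.5 and 100.5 in set 2 and Col1a2 at 247, 121, 701 and 131 in set 1 and 56.1, 37.1, 74.1 and 63.8 in set 2. Decorin, Dcn, a proteoglycan of connective tissue, differed by -0.85. Fibronectin, Fn1, the most abundant member and also made by glia, was higher (0.52). Summed counts of the list overlapped, at 8193 to 10730 in set 1 and 9648 to 11451 in set 2. Their mean was higher in set 2, a sum giving more weight to abundant members.

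Some vascular genes were higher in set 2. Endothelial genes were low, with 6 of the list below the minimum, and of 5 tested 3 were called higher, among them Kdr, the VEGF receptor, at 32.2, 24.5, 26.4 and 28.9 in set 1 and 91.2, 46.3, 63.2 and 54.6 in set 2, with no overlap. Egfl7 differed by 0.82 and the junction protein Ocln by 0.94, the latter lost in 4 of 8 refits, adjusted p up to 0.11 without AM-Allo 2-1. Of 8 mural genes, 4 were higher, among them the smooth muscle genes Tagln (0.41), Myh11 (0.59) and Cnn1 (0.81), of which Tagln and Cnn1 overlapped between sets. Another 3 mural genes had negative differences and were not called, and summed mural counts overlapped at 11252 to 12673 in set 1 and 12404 to 15421 in set 2. Of 9 ependymal and choroid plexus genes, 2 were higher, Clic6 (1.22) and Rarres2 (0.90), and 1 lower, the thyroxine carrier Ttr at 169, 229.8, 217 and 231 in set 1 and 140.5, 108, 109 and 90.2 in set 2. Of 7 microglia and macrophage genes that reached the minimum, only Cd68, a lysosomal protein, was called (0.86). Neither of 2 erythroid genes was called.

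Neuronal identity genes, like all genes tested, held more higher calls within AM-Allo than within AM-Veh. Over all genes these calls numbered 1366 and 746. Of 14 pan-neuronal genes, 2 were called higher and 0 lower (median 0.0348, against 17.2% of all genes called), the hydrolase Uchl1 (0.15) and the synaptic calcium sensor Syt1 (0.22). Both overlapped between sets. The call of Uchl1 was lost in 5 of 8 refits, adjusted p up to 0.0895 without AM-Allo 2-1, and that of Syt1 lost in 6 of 8 refits, adjusted p up to 0.114 without AM-Allo 2-1. The list's median was -0.0792 within AM-Veh, with 0 higher calls, and 0.17 within AM-Allo, with 8. Of 16 glutamatergic genes, 1 was higher and 1 lower, and the median was -0.0842 within AM-Veh, with 1 higher call, and 0.19 within AM-Allo, with 6. Whether the lists differed between treatments was not tested. The lower one, Bcl11b, which is known in deep-layer cortical, striatal and dentate neurons, stood at 468 ± 48.7 in set 1 and 293 ± 34.1 in set 2 (SD, n = 4 each), a log2 difference of -0.67, with no overlap.

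Genes of GABAergic interneurons were higher in part. Of 26 tested, 11 were called higher and 1 lower, with a median of 0.25, and without AM-Allo 1-1 the higher calls numbered 7. The median was 0.0116 within AM-Veh, with 5 higher calls, and 0.37 within AM-Allo, with 11. Over all genes the higher calls numbered 746 within AM-Veh and 1366 within AM-Allo. Gad1, which makes most of the brain's GABA, stood at 1181, 1091, 739 and 692 in set 1 and 1463, 1280.2, 1289.7 and 1168 in set 2, 1.4-fold higher (log2 difference 0.52, SE 0.084, adjusted p = 4.31e-04), and its sets overlapped. Its partner enzyme Gad2 differed by 0.51 and somatostatin, Sst, by 0.48, also with overlap. The calcium buffer Calb1 (0.54) did not overlap. Summed counts of the list went the other way from its median, at 29056 to 30592 in set 1 and 26293 to 28958 in set 2, a sum giving more weight to abundant members.

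Of 6 genes of Cajal-Retzius cells, the early neurons of the cortical and hippocampal margin, 2 were higher, Reln (0.45), their secreted glycoprotein, and the chemokine receptor Cxcr4 (0.26, overlapping and lost in 5 of 8 refits, adjusted p up to 0.122 without AM-Veh 2-2). The other 4 had negative differences and were not called, and the median of the list was -0.0476. Of 14 striatal and thalamic genes, 3 were higher, the opioid precursor Penk (0.76), the dopamine receptor Drd1 (0.49) and Ppp1r1b (0.23, lost in 5 of 8 refits, adjusted p up to 0.094 without AM-Allo 2-2). This list had 7 positive and 7 negative differences and a median of 0.0273. Penk stood at 519, 506, 375 and 392 in set 1 and 773, 784, 694 and 762 in set 2, with no overlap.

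Lists of neuronal maturity held calls in both directions, to be read against the 17.2% of all genes called. Of 18 immature neuron genes, 3 were higher and 3 lower. The adhesion protein Cd24 differed by 0.34, Igfbpl1 by 0.39 and Marcksl1 by 0.16, while the semaphorin receptor Plxna2 differed by -0.16, the tubulin Tubb2b by -0.09 and Dpysl3 by -0.10, the last lost in 2 of 8 refits, adjusted p up to 0.0644 without AM-Veh 1-1. Of 24 presynaptic genes, 3 were higher and 2 lower, the lower ones both complexins, Cplx1 (-0.23) and Cplx2 (-0.28), which clamp vesicle fusion, and the higher ones including the synaptotagmins Syt4 (0.32) and Syt5 (0.25). Of 26 postsynaptic genes, 1 was higher, the AMPA receptor subunit Gria4 (0.10, lost in 7 of 8 refits, adjusted p up to 0.156 without AM-Allo 1-2), and 4 lower, among them Gria2 (-0.13), the subunit that keeps AMPA receptors impermeable to calcium, Grin3a (-0.28) and Nlgn3 (-0.14). The median of the postsynaptic list was 0.00482 and turned negative under all 3 other scalings.

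GABA receptors and chloride transporters were listed because Allo acts on GABA-A receptors and because their makeup changes as neurons mature. Of 15 tested, 1 was higher and 2 lower. Gabra2 stood at 2258 ± 105 in set 1 and 2579.6 ± 216 in set 2 (SD, n = 4 each), a log2 difference of 0.19, Gabrg1 at 1829.7 ± 50.5 in set 1 and 1459 ± 54.6 in set 2 (SD, n = 4 each), a log2 difference of -0.33 and the chloride importer Slc12a2 differed by -0.11, a call lost in 5 of 8 refits, adjusted p up to 0.134 without AM-Allo 1-1. Slc12a5, the chloride exporter KCC2 that rises as GABA becomes inhibitory, stood at 1152, 1088, 1034 and 993 in set 1 and 1074, 999, 1269 and 1228 in set 2. Its sets overlapped and it was not called (log2 difference 0.09, SE 0.067, adjusted p = 0.385). Of 14 neurofilament and axon genes, Cntn1 alone was called over both treatments (-0.10, lost in 3 of 8 refits, adjusted p up to 0.0675 without AM-Veh 1-2). Of 20 voltage-gated channel genes, 4 were higher and 1 lower. The potassium channel Kcna1 stood at 192, 202, 163 and 135 in set 1 and 343, 272, 292 and 319 in set 2, with no overlap, and differed by 0.83, the sodium channel Scn3a by 0.18 (lost in 6 of 8 refits, adjusted p up to 0.0982 without AM-Allo 1-2) and the T-type calcium channel Cacna1g by -0.24.

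All 6 maturity lists had a median below 0 within AM-Veh and above 0 within AM-Allo. Over all genes the medians were -0.0036 and -0.00064, with 746 higher calls in AM-Veh and 1366 in AM-Allo. For presynaptic genes the median was -0.0756 with 0 higher calls in AM-Veh and 0.12 with 9 in AM-Allo. For genes of GABA receptors and chloride transport it was -0.0779 with 0 and 0.29 with 6, and for neurofilament and axon genes -0.0722 with 0 and 0.11 with 6. For immature neuron genes it was -0.10 with 2 and 0.10 with 7, for channels -0.0662 with 2 and 0.17 with 7, and for postsynaptic genes -0.0768 with 0 and 0.0882 with 4. The difference between treatments was not tested for these lists.

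Genes driven by neuronal activity did not move as 1 group. Of 25 immediate-early genes, 8 were called higher (32%, against 9.61% of all genes) and 4 lower (16%, against 7.61%), with a median of 0.16. In the astrocyte bin of the index lay 16 of the 25. Which cells made them was not tested. Junb stood at 339, 391, 368 and 331 in set 1 and 683, 708, 634 and 632 in set 2, 1.86-fold higher without overlap (log2 difference 0.89, SE 0.06, adjusted p = 7.67e-08). The stress-responsive factor Atf3 differed by 0.67, Gadd45g by 0.44 and Jun by 0.16. Lower genes included Btg2 (-0.42), Nr4a1 (-0.37) and Nr4a2 (-0.30, lost in 1 of 8 refits, adjusted p up to 0.0665 without AM-Allo 1-1). Without AM-Allo 1-1 the lower calls numbered 2.

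Of 23 late activity-dependent genes, 4 were higher (17.4%, against 9.61% of all genes) and 3 lower (13%, against 7.61%). Scg2, secretogranin, a precursor of secreted neuropeptides, stood at 4196, 3913, 3359.6 and 3479 in set 1 and 8886, 9595, 8181 and 8639.8 in set 2. It was 2.36-fold higher with a wide gap between the sets (log2 difference 1.24, SE 0.035, adjusted p = 1.20e-11). The neuropeptide precursor Vgf differed by 0.55 with overlap and the repressor Crem by 0.36, while the pentraxin Nptx2 differed by -0.20 and Rasgrp1 by -0.41. Stc1 was also lower (-0.28), lost in 7 of 8 refits, adjusted p up to 0.16 without AM-Allo 2-2.

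**Figure D5:**
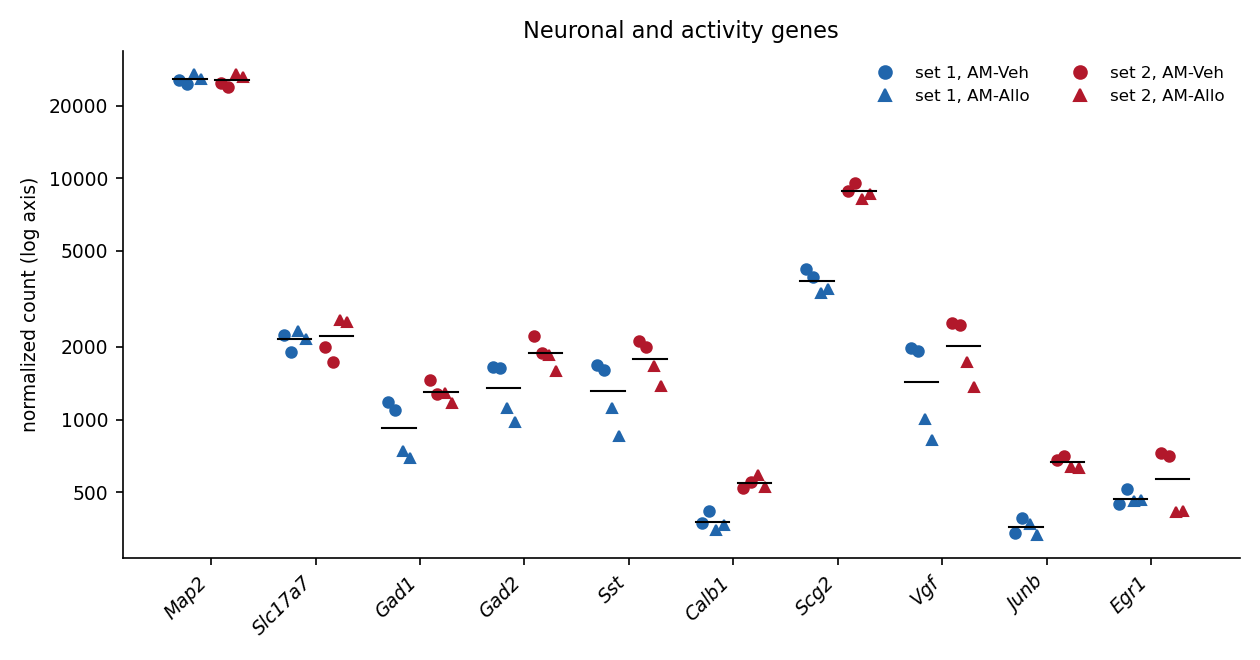
Normalized counts (log axis) of neuronal and activity genes in each neuron library, set 1 beside set 2, with circles and triangles for AM-Veh and AM-Allo and a bar at each set's mean. Scg2 lies at 3360 to 4196 in set 1 and 8181 to 9595 in set 2, while the sets overlap for Gad1.

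Housekeeping families moved by small steps that depended on scaling and on single libraries. Of 74 cytosolic ribosomal protein genes, 28 were called higher and 1 lower (median 0.0742). The higher calls numbered 16 to 20 under the other scalings, 18 without AM-Allo 1-1 and 12 without both libraries numbered 1-1, a refit chosen after seeing the data. Rps2 (0.39), Rpl17 (0.41) and Rpl28 (0.23) were higher and Rpl30 (-0.22) lower, and reads of this family could be shared with its many processed copies. Of 74 nuclear genes of oxidative phosphorylation, 3 were higher and 25 lower (median -0.0689), with 15 lower calls without both 1-1 libraries and 6 within AM-Veh alone. Atp5pd, a subunit of the peripheral stalk of ATP synthase, stood at 3759.8 ± 101 in set 1 and 2491 ± 122 in set 2 (SD, n = 4 each), a log2 difference of -0.59. The core subunits Atp5f1a and Atp5f1b differed by -0.15 and -0.16. The synthase inhibitor Atp5if1 was higher (0.56), as were Ndufa2 (0.33) and Atp5f1e (0.12, lost in 4 of 8 refits, adjusted p up to 0.0989 without AM-Allo 2-1).

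Of 24 cholesterol synthesis genes, 8 were lower and 0 higher (median -0.10), and without both 1-1 libraries 5 were. Cyp51, a demethylase of the pathway, differed by -0.24, Acat2 by -0.26 and Stard4, a sterol carrier, by -0.54. Of 12 genes of mitochondrial DNA 3 were lower and 0 higher, and the calls fell to 0 without AM-Veh 1-1. Of 13 replication-dependent histone genes, whose RNA lacks a poly(A) tail for the most part, 1 was lower. The 1 nuclear-retained RNA tested was not called.

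Sex-linked genes bear on whether the sets held different shares of male and female embryos. Of 7 tested, the Y-linked Kdm5d (0.19) and Eif2s3y (0.13) were higher and the X-linked Eif2s3 was lower (-0.09). Each difference was small. The call of Kdm5d was lost in 5 of 8 refits, adjusted p up to 0.103 without AM-Veh 1-2, that of Eif2s3y lost in 6 of 8 refits, adjusted p up to 0.097 without AM-Veh 2-2 and that of Eif2s3 lost in 5 of 8 refits, adjusted p up to 0.128 without AM-Allo 1-2. The reads of Eif2s3 and Eif2s3y could be shared between these near copies.

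Finally, the difference between the sets was compared between treatments. The interaction of set with treatment was called for 12 of 15314 genes (0.0784%), with 1459 (9.53%) at an unadjusted p under 0.05, and called genes are described because they are few. Egr1, an immediate-early gene of firing neurons, stood at 447, 516, 458 and 463 in set 1 and 725, 708, 415 and 419 in set 2. Set 2 was above set 1 in AM-Veh and below it in AM-Allo, and the set difference in AM-Allo minus that in AM-Veh was -0.72 on the log2 scale. Positive interactions were those of the scaffold Dlg2 (0.52), the vesicle protein Syngr3 (0.71), Ly6h (0.61), the phosphodiesterase Pde1a (0.67), Dpysl5 (0.36), Rnf152 (0.69) and Zcchc12 (0.42). Dmd, dystrophin, was at -0.32. The other 3 carry no usable symbol, being 2 unnamed loci and 1 symbol turned into a date. Adjusted p ranged from 0.0388 to 0.0427 in limma, and the count was 0 after quantile normalization and 1 to 97 without single libraries, so these 12 rested on the processing.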

How the data were processed

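RNA-seq values were analysed for the 8 neuron libraries. The authors made poly(A)-selected libraries, quantified rat transcripts of Ensembl with Salmon 0.14, took them to gene level with tximport and scaled the libraries to each other with DESeq2 1.18.1. The deposited signal values are these normalized counts per gene from the authors. Division back into whole reads was not exact (81.4% to 93.0% of values below 8 were whole within 0.15), so no count model was used. A second table of the authors, of variance-stabilized values, was not used, and the astrocyte table served only for the index of culture type. There were 0 unused columns.

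Of 18239 genes listed, 15314 were tested, those whose mean normalized count reached 10, on log2(value + 1), so fold changes of low genes are understated. The fit was made with limma 3.58.1 in R 4.3.3 (lmFit, eBayes with a trend), with set and treatment as terms, 5 residual degrees of freedom, two-sided tests and Benjamini-Hochberg adjustment over all genes. The interaction was tested in a further limma fit. On simulated data for this comparison, 66.5% of 200 genes changed by a log2 of 0.5 and 90.5% of 200 changed by 1 were recovered. The simulation changed only these 200 genes and drew independent noise for each gene, whereas 2636 genes were called in the data. The recovered shares therefore need not hold for the data. Symbols turned into dates, 21 of them, match no list. Promoters were searched with Python 3.11.15.

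The 39 gene lists and the members were chosen with earlier results of these data known. Genes were named by a rule, which took the 12 largest changes in each direction, up to 3 called members of each list in each direction with the smallest p, and the most abundant member. Gad1, Sst, Slc12a5, Asns, Atf4, Ddit3, Lcn2, Gclc, Nars, the genes of the promoter windows and those of the interaction were named after their values were seen. Some genes that the rule took are not reported here.

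Same-numbered libraries did not deviate together, with correlations of 0.054 and 0.065, so the numbers were not taken to pair libraries. Alternatives covered scaling, the filter, the pseudocount, the variance trend, the replicate block, single treatments and leaving out each library.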

Additional observations from a re-analysis of the deposited data

Results flagged for a closer look

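In a set of 4 libraries, 1 library can lie far from the other 3, which chance alone gives in about 1 in 20 groups. This was so in 16 of the 350 groups formed by the named genes in the 2 sets, and in 3 of 78 groups formed by the list medians. In set 1, AM-Veh 1-2 was the one apart for Slc7a11 (2479 normalized counts against 2176 to 2224 in the other 3), Hmox1 (7740 against 7230.0 to 7260), Eif4ebp1 (397.2 against 358.6 to 363.6) and Cacna1g (1276 against 1224 to 1227). AM-Veh 1-1 was apart for Atp5pd (3910 normalized counts against 3698 to 3718) and Rpl17 (3177 against 2916 to 2922). AM-Allo 1-1 was apart for Spp1 (64.09 normalized counts against 45.37 to 47.99), and AM-Allo 1-2 for Pkm (11537 against 11778 to 11822).

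In set 2, AM-Veh 2-1 was apart for Tbxas1 (37.84 normalized counts against 52.97 to 55.3 in the other 3), Atf5 (6300 against 7205 to 7268) and Asns (2124 against 2257 to 2273), and AM-Veh 2-2 for Hmox1 (19351 against 16707 to 16876) and Nars (9411 against 8960 to 8980). AM-Allo 2-2 was apart for Gsn (18441 normalized counts against 16517 to 16590), Chac1 (270.4 against 325.6 to 328.2) and Ddit4 (2599 against 2838 to 2873). None of these libraries reached the range of the other set, since the sets did not overlap for any of these genes, although Chac1 in AM-Allo 2-2 lay just above the 270.1 of AM-Veh 1-1. For list medians, written as log2 relative to the mean of the 8 libraries, AM-Veh 1-1 was apart in set 1 for immature neuron genes (0.02404 against -0.02623 to -0.02231) and for GABA receptor and chloride transporter genes (0.06534 against -0.05421 to -0.03407). AM-Veh 1-2 was apart in set 1 for cholesterol synthesis genes (-0.01072 against 0.06405 to 0.06728).

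The set difference in AM-Allo minus that in AM-Veh passed limma's adjusted test for 12 genes. On the log2 scale it was 0.518 for Dlg2, 0.357 for Dpysl5, 0.609 for Ly6h, 0.669 for Pde1a, 0.69 for Rnf152, 0.711 for Syngr3, 0.421 for Zcchc12, 0.632 for a gene whose symbol had been turned into a date and 1.88 for the unnamed locus LOC100362113. It was -0.319 for Dmd, -0.718 for Egr1 and -3.19 for the unnamed locus LOC100911516.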

How the results depend on the processing

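The direction and the call of most results held under the alternatives, and the count of called genes moved most with the treatment taken alone, the libraries left out and the variance model. In AM-Veh libraries alone 1069 genes were called (746 higher, 323 lower) and in AM-Allo libraries alone 2405 (1366 higher, 1039 lower), each fit having 2 libraries against 2. Without the variance trend 1722 were called, 700 of them lower, and without both libraries numbered 1-1, chosen after seeing the data, 1634, of them 649 lower. Leaving out 1 library at a time gave 1929 to 2527 called genes, 1125 to 1411 higher and 780 to 1118 lower. With a replicate block on the second part of the number 2718 genes were called, and with the whole number as a random replicate block 2929, but the numbers do not pair the libraries. The set by treatment interaction was called for 105 genes under the replicate block, for 1 to 97 without single libraries, and in limma for 0 after quantile normalization (1456 at an unadjusted p under 0.05) and 0 without the variance trend (1241). The median of the genes most enriched in astrocyte cultures was 0.1186 with 10 bins in place of 0.0657 with 5. The cause of these moves was not tested beyond what each construction shows. Other scalings moved the median of all genes to between -0.0214 and -0.0144, and changed the sign of the list median for heat shock and neurofilament genes (quantile), sex-linked genes (library total) and postsynaptic genes (all 3). Within AM-Veh alone fewer list members were called lower among radial glia (3 against 7), oligodendrocyte (4 against 8), cholesterol synthesis (3 against 8) and hypoxia genes (2 against 6), and fewer higher among interferon genes (3 against 9) and ribosomal proteins (8 against 28). Within AM-Allo alone more were called higher among pan-neuronal (8 against 2), glutamatergic (6 against 1), presynaptic (9 against 3), neurofilament (6 against 0) and GABA receptor and chloride genes (6 against 1). Of 163 named genes that were called, 21 lost the call without some single library. Precision is limited by depth for genes near the minimum and by 4 libraries per set. Each set is still 1 unit, so more libraries of the same sets would not show how sets vary.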
